A study of Homo sapiens with 18 samples.

Results

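Aminoacyl-tRNA synthetases are the enzymes that load each amino acid onto its transfer RNA, and the report covers the 36 genes that encode them, chosen by name. Of these, 20 encode cytosolic enzymes and 16 encode mitochondrial enzymes. All 36 were found among the 16001 genes of the BL-41 table, the 15365 of the Namalwa table and the 16787 of the Jiyoye table. All 36 were also among the expressed genes of each line, meaning here that the value averaged over both arms was 100 or more. The lowest member average was 126 in BL-41, against 129 in Namalwa and 211 in Jiyoye. Symbols are given as in the tables, where cytosolic alanyl-tRNA synthetase is AARS (now AARS1), and likewise for the other cytosolic enzymes except FARSA and FARSB.

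The study asked what loss of the transcription factor FOXO3 does to Burkitt lymphoma cells, a B cell cancer driven by MYC. BL-41, Namalwa and Jiyoye, which are established cell lines of this lymphoma, received a lentiviral vector that carries a U6-driven short hairpin RNA (shRNA) and the red fluorescent protein TagRFP. The hairpin was directed against FOXO3 in one arm and scrambled in the other, so that both arms of a line were infected, and infected cells were sorted on day 4. All lines grew in RPMI1640 medium with serum, glutamine and antibiotics, and messenger RNA was enriched with oligo-dT. The 6 groups held 3 libraries each, 18 in all. The labels speak of triplicates and do not name separate cultures, so the spread behind the p-values is that of these libraries and may be technical. How many hairpins against FOXO3 were used is not given in the sources used here, so an effect of FOXO3 and another effect of a hairpin cannot be told apart.

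The deposited tables give 1 normalized value for each arm, a log2 fold change of FOXO3 shRNA over scrambled shRNA, and its p-value from DESeq2. Values of single libraries and their total counts were not analysed here, so the depth behind each value is unknown and errors are standard errors (SE) recovered from fold change and p. A gene is called where the Benjamini-Hochberg adjusted p is under 0.05. FOXO3 itself went from 945 to 545 in BL-41 (log2 fold change -0.79, adjusted p = 3.15e-07), per the authors' deposited table. The authors' deposited tables list it at 851 and 398 for Namalwa (-1.09, 2.49e-09), and at 471 and 384 for Jiyoye (-0.30, 0.187). The knockdown was thus not called in Jiyoye. B cell markers were measured in all 3 lines (6 of 6). CD79B (-0.84) and CD22 (-0.48) were called lower in BL-41, none was called in Namalwa (2 at an unadjusted p under 0.05 by DESeq2), and CD79A (0.36) and CD79B (0.53) were called higher in Jiyoye, per the authors' deposited tables. Myeloid markers summed to 237 in scrambled and 442 in FOXO3 shRNA cells of BL-41, where 4 of the 8 measured were called higher, and S100A8 and S100A9 were not listed. Their sums were 197 and 207 for the arms of Namalwa, and 705 and 603 for those of Jiyoye. None was called in Namalwa (1 at an unadjusted p under 0.05 by DESeq2). In Jiyoye 1 of the 9 measured, CD14, was called higher, from 5.66 to 14.2 (1.33, adjusted p = 0.0447, DESeq2). Among all genes, 14.5% were called higher and 14.2% lower in BL-41, and 8.69% and 8.70% in Jiyoye. The exons of 8 members (AARS, HARS, MARS, WARS, YARS, AARS2, HARS2 and EARS2) overlap a gene on the other strand. Whether counting used strand is not given in the sources used here, so reads of these overlaps cannot be told apart.

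Each synthetase binds ATP and one amino acid, forms an activated intermediate and passes the amino acid to the matching transfer RNA. Class I and class II enzymes have unrelated catalytic folds, and several cytosolic enzymes are held together with scaffold proteins in the multisynthetase complex. Mitochondria use their own set, also encoded in the nucleus, except that GARS and KARS each encode both forms. Many cytosolic synthetase genes are known targets of ATF4, the transcription factor of the integrated stress response, which is made when amino acids run short.

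Promoter windows were searched for the core of the C/EBP-ATF response element that ATF4 binds, because it ties synthetase genes to that response. The windows run from 250 bases before to 50 after each annotated start in RefSeq (GRCh38.p14), and 30 of the 36 members had one or more, 39 windows in all. YARS, DARS, LARS, VARS, VARS2 and AARS2 had no window. The letters TGATGNAA, on either strand, were found in 8 of the 39 windows (20.5%), 1 for each of 8 genes. They were found in 3.62% of all 35116 windows and in 1.82% of the windows of genes expressed in every line. Of the 16 cytosolic genes with a window 7 held the core, against 1 of the 14 mitochondrial genes. The 8 sites are shown as 30 bases on the gene's own strand, 5′ to 3′, with the core in capitals, as its reverse complement where it lies on the opposite strand.
AARS, chr16:70289675-70289704, minus strand: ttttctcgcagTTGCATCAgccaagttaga
CARS, chr11:3057407-3057436, minus strand: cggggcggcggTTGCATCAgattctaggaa
GARS, chr7:30594834-30594863, plus strand: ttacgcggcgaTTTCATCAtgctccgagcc
IARS, chr9:92293692-92293721, minus strand: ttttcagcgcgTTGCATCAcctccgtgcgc
MARS, chr12:57488053-57488082, plus strand: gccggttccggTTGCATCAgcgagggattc
NARS, chr18:57621804-57621833, minus strand: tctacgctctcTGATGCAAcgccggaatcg
TARS, chr5:33440956-33440985, plus strand: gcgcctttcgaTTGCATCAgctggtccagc
YARS2, chr12:32756076-32756105, minus strand: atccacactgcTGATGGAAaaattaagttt
Of these sites, 6 begin between 33 bases before and 15 bases after an annotated start, which for GARS and TARS lies within the gene. Those of AARS and YARS2 begin 187 and 197 bases before theirs. In 6 of the 7 cytosolic genes the core is TTGCATCA or its reverse complement TGATGCAA, and GARS has another letter at the free position. A match is a run of letters and not evidence of binding.

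The E-box CACGTG, the motif of MYC and its partner MAX, was found in 5 of the 39 windows (12.8%), against 7.26% of all windows and 10.1% of those of genes expressed in every line. It lies near IARS, MARS2, CARS2 and EARS2, where the 2 windows of EARS2 share 1 site. Counted by gene, 4 of 30 members (13.3%) held it, against 13.6% of genes expressed in every line. The forkhead motif GTAAACA, the core recognised by FOXO proteins, was found in 1 window (2.56%), that of an alternative start of CARS, against 3.42% of all windows and 2.65% of those of the expressed genes. Both motifs were searched on both strands, and neither overlaps the ATF core in these windows. MARS2 and CARS2 are shown because their E-boxes lie next to a start, which for CARS2 is an alternative start within the gene. The E-box of EARS2 also lies next to a start, 15 bases before it, and is not shown. IARS is shown because its window also holds an ATF core, and CARS for the forkhead motif.
MARS2, chr2:197705346-197705375, plus strand: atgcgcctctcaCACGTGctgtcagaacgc
CARS2, chr13:110706501-110706530, minus strand: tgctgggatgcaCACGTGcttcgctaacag
CARS, chr11:3041075-3041104, minus strand, forkhead motif: ctctgttgaatTGTTTACactaaacacaaa
IARS, chr9:92293866-92293895, minus strand: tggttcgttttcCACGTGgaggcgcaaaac

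Before fold changes are compared, the levels show what each line expressed. Levels are compared between genes as normalized value per kb of gene length, within a line, since the tables were normalized separately. In scrambled cells of BL-41 the highest were SARS (6088 per kb), WARS (5896) and GARS (5568), the seryl, tryptophanyl and glycyl enzymes. GARS led in Namalwa at 4655 per kb, and QARS, the glutaminyl enzyme, led in Jiyoye at 3604. HARS, the histidyl enzyme, was the lowest cytosolic member in BL-41 (420 per kb) and Namalwa (517), and VARS, the valyl enzyme, in Jiyoye (471). Differences between neighbours in these orders were not tested.

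Mitochondrial members were lower than their cytosolic partners in nearly every case. TARS2 was the highest in BL-41 (625 per kb), and IARS2 in Namalwa (691) and Jiyoye (1203). FARS2 was the lowest in BL-41 (79.2 per kb) and Namalwa (67.3), and AARS2 in Jiyoye (98.4). Cytosolic and mitochondrial genes were paired for 14 amino acids, with EPRS set against EARS2 and not against PARS2. Per kb, the cytosolic gene exceeded the mitochondrial one by a median of 7.64 times in BL-41, against 6.02 times in Namalwa and 4.08 times in Jiyoye. The widest gaps were those of AARS over AARS2 in BL-41 (29.4 times) and of WARS over WARS2 in Namalwa (35.9 times). Among these pairs and lines the order turned in Jiyoye alone, for isoleucine (0.914) and valine (0.876).

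**Figure D1:**
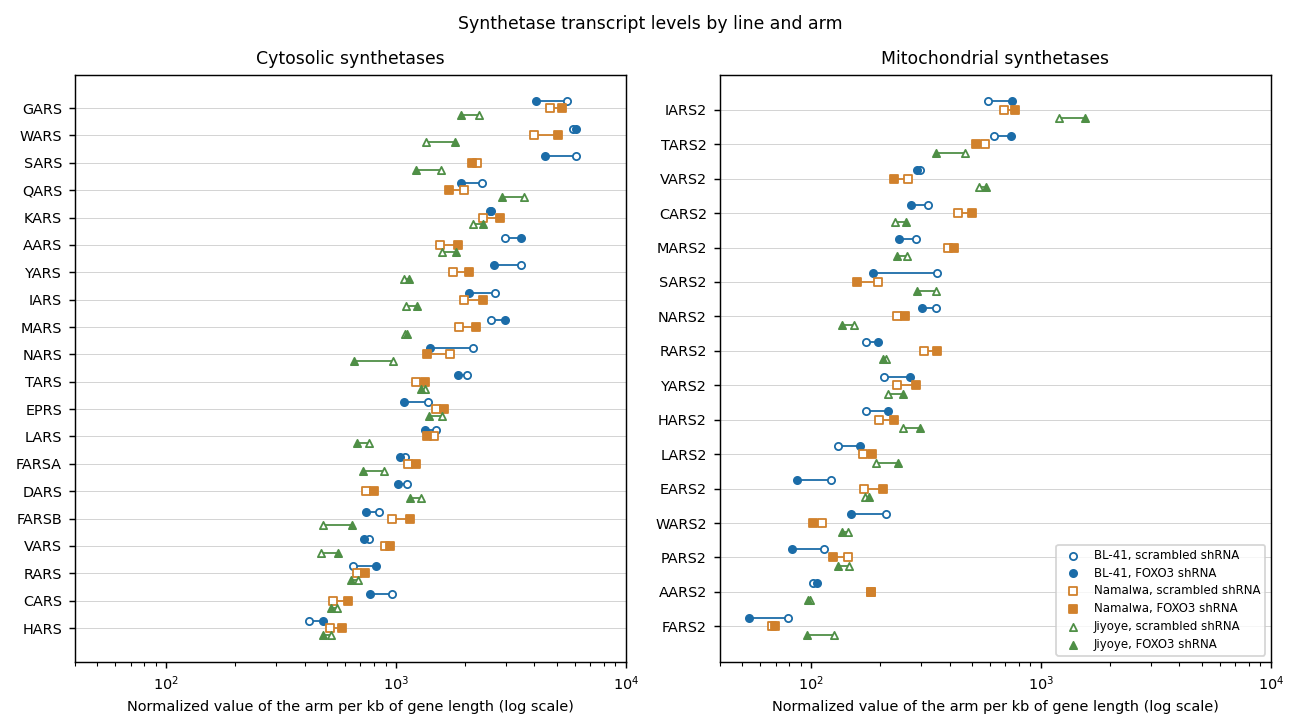
Normalized value of each arm per kb of gene length (x axis, log scale) for the 20 cytosolic and 16 mitochondrial synthetases (rows, ordered by their mean level over lines). Open symbols are scrambled shRNA and filled symbols FOXO3 shRNA, joined by a line, in BL-41 (circles), Namalwa (squares) and Jiyoye (triangles), with 1 deposited value per arm and no error. Most cytosolic members lie to the right of most mitochondrial members, and SARS2 has the longest line of BL-41 among the latter.

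Summed per kb, the cytosolic set went from 47223 in scrambled to 41547 in FOXO3 shRNA cells of BL-41. The sums were 33794 and 37274 for Namalwa, and 25377 and 24243 for Jiyoye. The mitochondrial set went from 4134 to 4104, from 4372 to 4584 and from 4760 to 5028 in the same order. These sums have no error and are a description only.

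In BL-41, 8 of the 20 cytosolic synthetases fell and none rose, while of the 16 mitochondrial ones 4 fell and 2 rose. The cytosolic genes that fell were NARS, SARS, GARS, YARS, EPRS, IARS, CARS and QARS. Among all genes of BL-41 14.5% were called higher and 14.2% lower, and among the expressed genes the shares were 20.0% and 20.7%. Of the cytosolic members without a call, 3 had an unadjusted p under 0.05, all with positive values in DESeq2's test (AARS 0.22, MARS 0.20 and RARS 0.34). AARS was called higher when p-values were adjusted only over genes averaging 10 or more, or 100 or more, and RARS with the SE of genes of like mean value. The median log2 fold change was -0.16 over the cytosolic and -0.12 over the mitochondrial members, against 0.00 over the expressed genes. Beside these calls, 4 of 8 myeloid markers (LYZ, CD14, CD68 and CD33) were called higher and 2 of 6 B cell markers (CD79B and CD22) lower in BL-41, and the part of either in the result was not tested.

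NARS, which charges asparagine, was the synthetase called lower in all 3 lines. In the authors' deposited tables BL-41 had 6211 in scrambled and 4038 in FOXO3 shRNA cells, Namalwa 4947 and 3918, and Jiyoye 2780 and 1887. The FOXO3 shRNA arm was the lower in each line. The log2 fold changes were -0.62 (SE 0.12, adjusted p = 9.88e-06 by DESeq2), -0.34 (SE 0.11, 0.046) and -0.56 (SE 0.12, 4.17e-05). Of 8870 genes expressed in every line, 2.67% were called lower in all 3. No difference of the NARS fold changes between lines was called by a z test (adjusted p from 0.364 to 0.918), with a 95% interval for BL-41 minus Namalwa from -0.61 to 0.04. ASNS, which makes asparagine, was also called lower in each line (-1.15, -0.40 and -0.85, adjusted p = 8.33e-13, 0.0241 and 1.58e-05) in the authors' deposited tables. NARS2, the mitochondrial asparaginyl enzyme, was not called in any line (-0.20, 0.12 and -0.18).

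SARS, GARS and YARS, which charge serine, glycine and tyrosine, followed NARS in BL-41. SARS went from 11908 to 8686 there (-0.46, SE 0.12, adjusted p = 0.00091, DESeq2 in the authors' deposited table). It was -0.07 (adjusted p = 0.865) in Namalwa and -0.36 (0.0643) in Jiyoye, without a call. GARS went from 13631 to 9958 in BL-41 (-0.45, SE 0.12, adjusted p = 0.00167, the authors' deposited table). The authors' deposited tables list GARS at 11404 and 12922 for Namalwa (0.18, 0.568), and at 5615 and 4719 for Jiyoye (-0.25, 0.193). The FOXO3 shRNA arms of SARS and GARS were thus the lower in BL-41 and Jiyoye, and in Namalwa that of SARS was the lower and that of GARS the higher.

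YARS was the 1 synthetase called in opposite directions in a pair of lines. The authors' deposited tables list it at 10925 in scrambled and 8279 in FOXO3 shRNA cells of BL-41 (-0.40, SE 0.11, adjusted p = 0.0024, DESeq2). In Namalwa the same tables give 5517 and 6503 (0.24, SE 0.08, 0.0359), and in Jiyoye 3380 and 3547 (0.07, SE 0.11, 0.779). The Namalwa call of YARS was lost when the arms were rescaled to equal sums (adjusted p = 0.0629) and with the SE of genes of like mean value (0.159). S100PBP, which overlaps its exons on the other strand, was at 0.09 in BL-41 and 0.05 in Namalwa, without a call, and was called higher in Jiyoye (0.63, adjusted p = 0.000255, the authors' deposited table). Its part in the YARS values was not tested.

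EPRS, IARS and QARS belong to the multisynthetase complex and charge glutamate and proline, isoleucine and glutamine. In the BL-41 arms EPRS went from 6899 to 5442 (-0.34, SE 0.11, adjusted p = 0.00764, the authors' deposited table), and IARS from 12380 to 9533 (-0.38, SE 0.12, 0.00836). QARS went from 6733 to 5429 (-0.31, SE 0.12, 0.0381), and CARS, the cysteinyl enzyme outside the complex, from 2506 to 1997 (-0.33, SE 0.12, 0.0243). QARS was also called lower in Jiyoye, from 10244 to 8175 (-0.33, SE 0.10, adjusted p = 0.0141), and in Namalwa it was -0.21 (0.102) in the authors' deposited tables. Of genes expressed in every line, 7.10% were called lower in both BL-41 and Jiyoye, where NARS and QARS were the members of this kind.

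Of the 8 synthetases of the complex, the 3 named fell in BL-41, none was called in Namalwa and QARS fell in Jiyoye. The shares of expressed genes called lower were 20.7%, 5.76% and 12.8% in the same order. Outside the complex, 5 of 12 cytosolic synthetases fell in BL-41, so falling was not particular to the complex. In Namalwa, 4 of the 8 had an unadjusted p under 0.05 by DESeq2, 3 of them with positive values. The median log2 fold changes were -0.16, 0.11 and -0.13. KARS, the lysyl enzyme, gave -0.01, 0.24 and 0.15, and DARS, the aspartyl enzyme, -0.14, 0.12 and -0.16, none of them called. Of the 3 scaffold proteins, AIMP2 went from 1241 to 627 (-0.98, adjusted p = 2.6e-06) and AIMP1 from 1233 to 833 (-0.57, 3.01e-05) in BL-41 in the authors' deposited table. EEF1E1 was at -0.07 there. None of the 3 was called in Namalwa or Jiyoye, where 1 each had an unadjusted p under 0.05 by DESeq2.

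The 12 of 20 cytosolic synthetases reported as ATF4 targets or induced by amino acid limitation held 7 of the 8 cytosolic calls in BL-41. Their median log2 fold change was -0.34, and that of the other 8 was -0.07, among which QARS was called. Without a call but at an unadjusted p under 0.05 by DESeq2, AARS (0.22) and MARS (0.20) of the 12 were higher in BL-41. So was RARS (0.34) of the other 8. This list was chosen with earlier results of these data known, and the difference of medians was not tested. In Namalwa 1 of the 12 was called higher (YARS) and 1 lower (NARS), with a median of 0.19. In Jiyoye 1 was called higher (WARS) and 1 lower (NARS), with a median of -0.08. The members with the ATF core in a promoter window can be set beside those with a window but no core. In BL-41, 4 of the 8 with the core were called lower and 1 higher, with a median of -0.23. Of the 22 without it, 7 were called lower and 1 higher, with a median of -0.19. Both shares lie above the 20.7% of expressed genes that were called lower, and the difference between them was not tested. In Namalwa the median was 0.23 with the core and 0.11 without it, and in Jiyoye -0.01 and -0.11, so that the group with the core had the lower median in BL-41 alone.

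WARS, which charges tryptophan and is known to be induced by interferon gamma, was the only cytosolic synthetase called higher in Jiyoye. It went from 3550 to 4745 there (0.42, SE 0.14, adjusted p = 0.0246, DESeq2 in the authors' deposited table). In BL-41 it was 16090 and 16576 (0.04, SE 0.17, 0.887), and in Namalwa 10895 and 13744 (0.34, SE 0.17, 0.265). WDR25, which overlaps its exons on the other strand, was at -0.48 in Jiyoye (adjusted p = 0.211).

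In Namalwa the cytosolic calls were YARS higher and NARS lower, and no mitochondrial synthetase was called. The background there was 2.60% higher and 3.81% lower over all genes, and 3.85% and 5.76% over the expressed genes. At an unadjusted p under 0.05 by DESeq2, 7 cytosolic members were higher and 2 lower, and 1 mitochondrial member, EARS2, was higher. The sign was positive for 16 of the 20 cytosolic and 10 of the 16 mitochondrial members, with medians of 0.15 and 0.10, against 0.00 over the expressed genes. With the arms rescaled to equal sums, NARS lower was the only Namalwa call.

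In Jiyoye 2 cytosolic synthetases fell (NARS and QARS) and 1 rose (WARS), and among the mitochondrial ones IARS2 rose. Over all genes of Jiyoye 8.69% were called higher and 8.70% lower, and over the expressed genes the shares were 12.7% and 12.8%. The share of members called, 4 of 36, lay below this background. With the arms rescaled to equal sums the mitochondrial split was 1 higher and 1 lower, TARS2 being added as lower (adjusted p = 0.0422). FOXO3 was not called in this line.

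**Figure D2:**
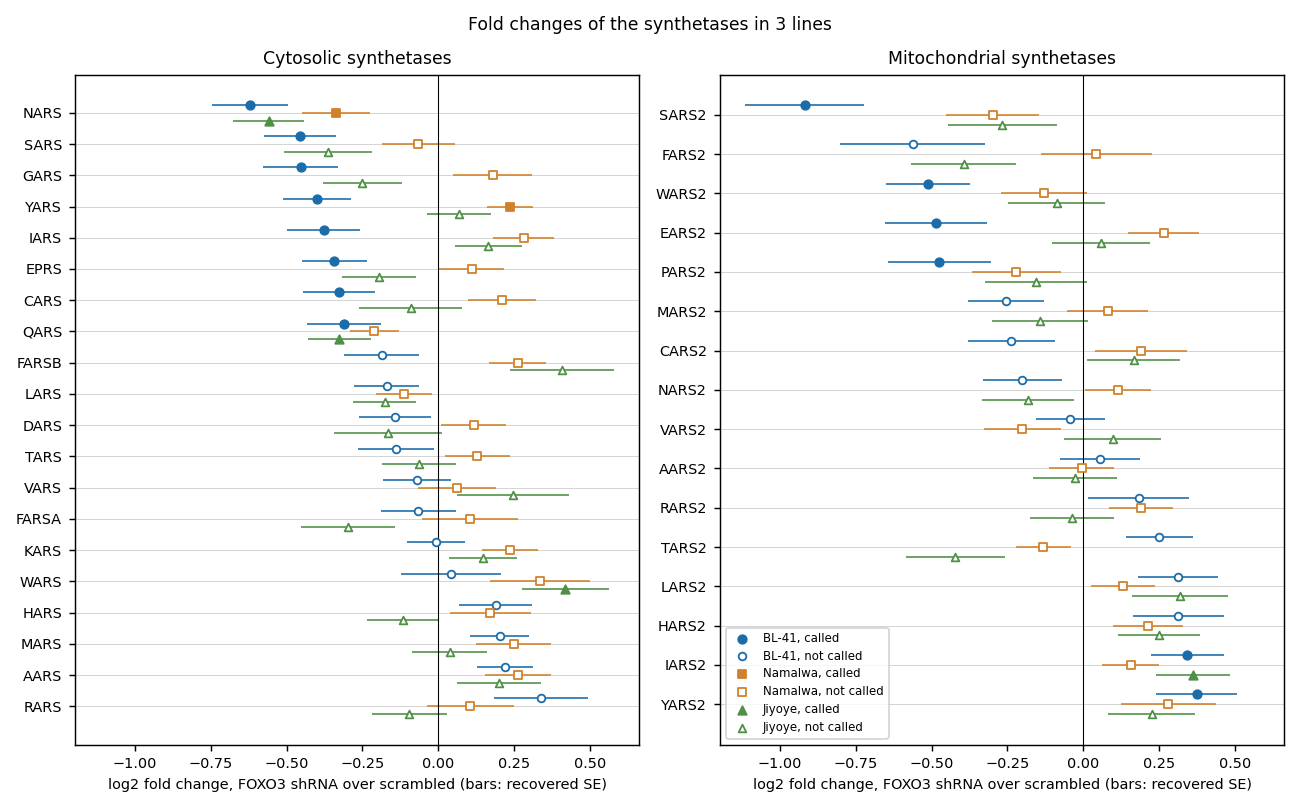
Log2 fold change of FOXO3 shRNA over scrambled shRNA (x axis, bars are recovered SE) for the 20 cytosolic and 16 mitochondrial synthetases (rows, ordered by BL-41). Filled symbols passed an adjusted p of 0.05 in DESeq2, open symbols did not. NARS lies left of 0 in all 3 lines, and YARS lies at -0.40 in BL-41 and 0.24 in Namalwa.

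Of the mitochondrial synthetases, SARS2 had the lowest fold change of all 36 members. It fell in BL-41 from 731 to 387 (-0.92, SE 0.20, adjusted p = 3.59e-05), while in Namalwa it was 404 and 328 (-0.30, 0.297) and in Jiyoye 723 and 601 (-0.27, 0.362) in the authors' deposited tables. WARS2 (597 to 419, -0.51, adjusted p = 0.00165), EARS2 (480 to 343, -0.49, 0.0172) and PARS2 (275 to 198, -0.47, 0.0216) also fell in BL-41, per the authors' deposited table. They charge tryptophan, glutamate and proline in mitochondria. SARS2 starts 181 bases from MRPS12 on the other strand, which was called higher in BL-41 (0.37, adjusted p = 0.0435). EARS2 shares exons with UBFD1 on the other strand, which was also called higher there (0.87, 1.4e-07), so the EARS2 value is uncertain. UBFD1 was called higher in Namalwa as well (0.48, adjusted p = 0.0091, DESeq2).

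IARS2 and YARS2, for isoleucine and tyrosine, were the mitochondrial synthetases that rose. IARS2 went from 2083 to 2644 in BL-41 (0.34, SE 0.12, adjusted p = 0.0196) and from 4271 to 5490 in Jiyoye (0.36, SE 0.12, 0.0216), against 0.16 (0.418) in Namalwa, in the authors' deposited tables. Its FOXO3 shRNA arm was the higher in all 3 lines. YARS2 went from 453 to 587 in BL-41 (0.37, SE 0.13, 0.0219), and was 0.28 (0.359) in Namalwa and 0.23 (0.319) in Jiyoye, per the authors' deposited tables. Of genes expressed in every line, 7.24% were called higher in both BL-41 and Jiyoye, and IARS2 was the 1 member of this kind. With the arms rescaled to equal sums the BL-41 calls of IARS2 (adjusted p = 0.0575) and YARS2 were lost, and the split of 2 higher and 4 lower became 0 higher and 6 lower. HARS2 (0.31, adjusted p = 0.107) and LARS2 (0.31, 0.06) had values of like size in BL-41 without a call.

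The cytosolic and mitochondrial genes of an amino acid did not share a direction as a rule. The sign was the same in 8 of 14 pairs in BL-41 and also in Namalwa, and in 7 in Jiyoye. The histidine pair, counted as the same in BL-41 and Namalwa, is uncertain, as exons of HARS and HARS2 overlap on opposite strands. In BL-41 both genes fell for serine and for glutamate. EPRS, counted here for glutamate, also charges proline, and PARS2, the mitochondrial prolyl enzyme, fell in BL-41 too (-0.34 and -0.47). That pair is not among the 14. For isoleucine the cytosolic IARS fell and the mitochondrial IARS2 rose, and for tyrosine YARS fell and YARS2 rose. No pair had both genes called in Namalwa or Jiyoye.

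**Figure D3:**
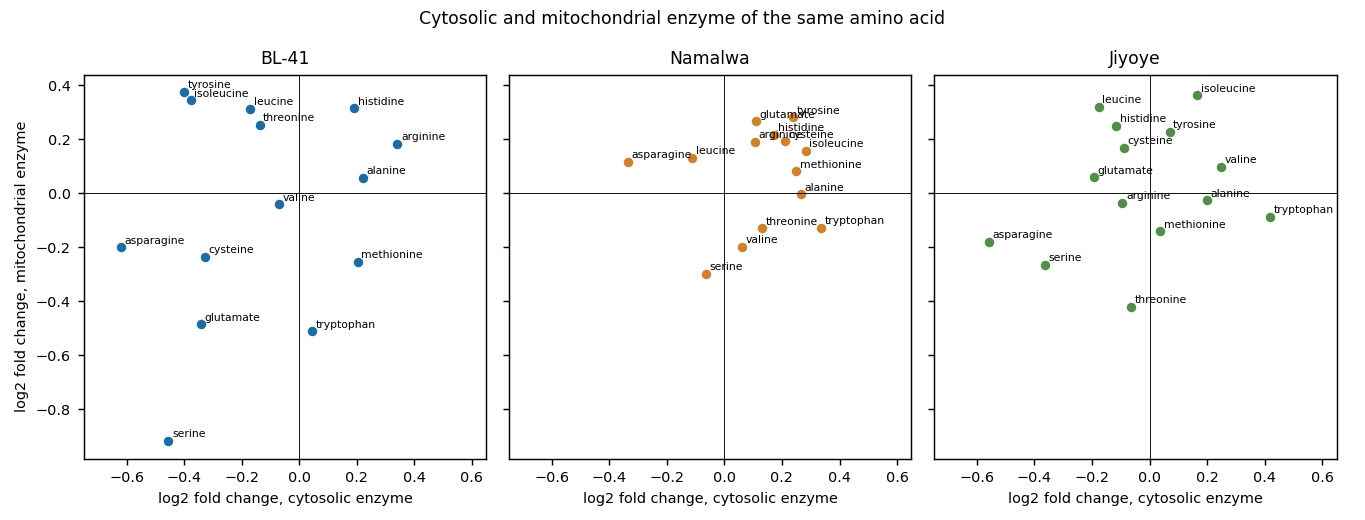
Log2 fold change of the mitochondrial gene (y axis) against that of the cytosolic gene (x axis) for the 14 paired amino acids, in 3 lines. Each point is 1 amino acid, named beside it, with 1 deposited fold change per gene and no error drawn. In BL-41 tyrosine and isoleucine lie at the upper left and serine at the lower left.

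By catalytic class, 7 of 19 class I and 5 of 17 class II genes fell in BL-41, and the 2 that rose were class I. The shares over expressed genes there were 20.7% lower and 20.0% higher. EPRS, which joins a class I and a class II enzyme in 1 protein, was counted as class I. The medians were -0.17 and -0.14. In Namalwa the called class I gene was YARS and the called class II gene was NARS.

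Differences between lines were tested directly, as the difference of fold changes with a z test adjusted over all genes shared by a pair of lines. BL-41 differed from Namalwa for 6 of the 36 members, each lower in BL-41, where 7.01% of 14789 genes differed. They were YARS (-0.64, adjusted p = 0.00038), IARS (-0.66, 0.0018), EARS2 (-0.75, 0.00865), GARS (-0.63, 0.0125), CARS (-0.54, 0.0226) and EPRS (-0.45, 0.0457). IARS is listed at 12380 and 9533 for BL-41, at 9068 and 11028 for Namalwa (0.28, adjusted p = 0.0692) and at 5030 and 5642 for Jiyoye (0.17, 0.36) in the authors' deposited tables. Its FOXO3 shRNA arm was thus the lower in BL-41 and the higher in the other lines. The Namalwa arms were 7513 and 8110 for EPRS (0.11), 1371 and 1586 for CARS (0.21) and 677 and 814 for EARS2 (0.27) in the authors' deposited table, none of them called. The EARS2 difference is uncertain, since EARS2 shares exons with UBFD1. The 95% interval of the difference was -0.97 to -0.35 for IARS and -0.90 to -0.37 for YARS. The difference was negative for 27 of the 36 members, with a median of -0.26. The 7.01% and the shares given for the other pairs are over all shared genes, while all 36 members were expressed. A share over expressed genes alone was not computed.

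BL-41 differed from Jiyoye for 3 members, where 6.25% of 15419 genes differed. IARS (-0.54, adjusted p = 0.0224) and YARS (-0.47, 0.0412) were lower in BL-41, and TARS2, the mitochondrial threonyl enzyme, was higher (0.67, 0.0172). TARS2 itself was called in neither line, at 0.25 in BL-41 (1678 to 1998, adjusted p = 0.0713) and -0.42 in Jiyoye (1267 to 946, 0.0541) in the authors' deposited tables. With the SE of genes of like mean value the YARS difference was no longer called (0.0645). Namalwa and Jiyoye differed for none of the 36 by the z test, where 2.75% of 14933 genes did. The smallest adjusted p was 0.237, and 1 member, GARS (0.43), had an unadjusted p under 0.05.

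**Figure D4:**
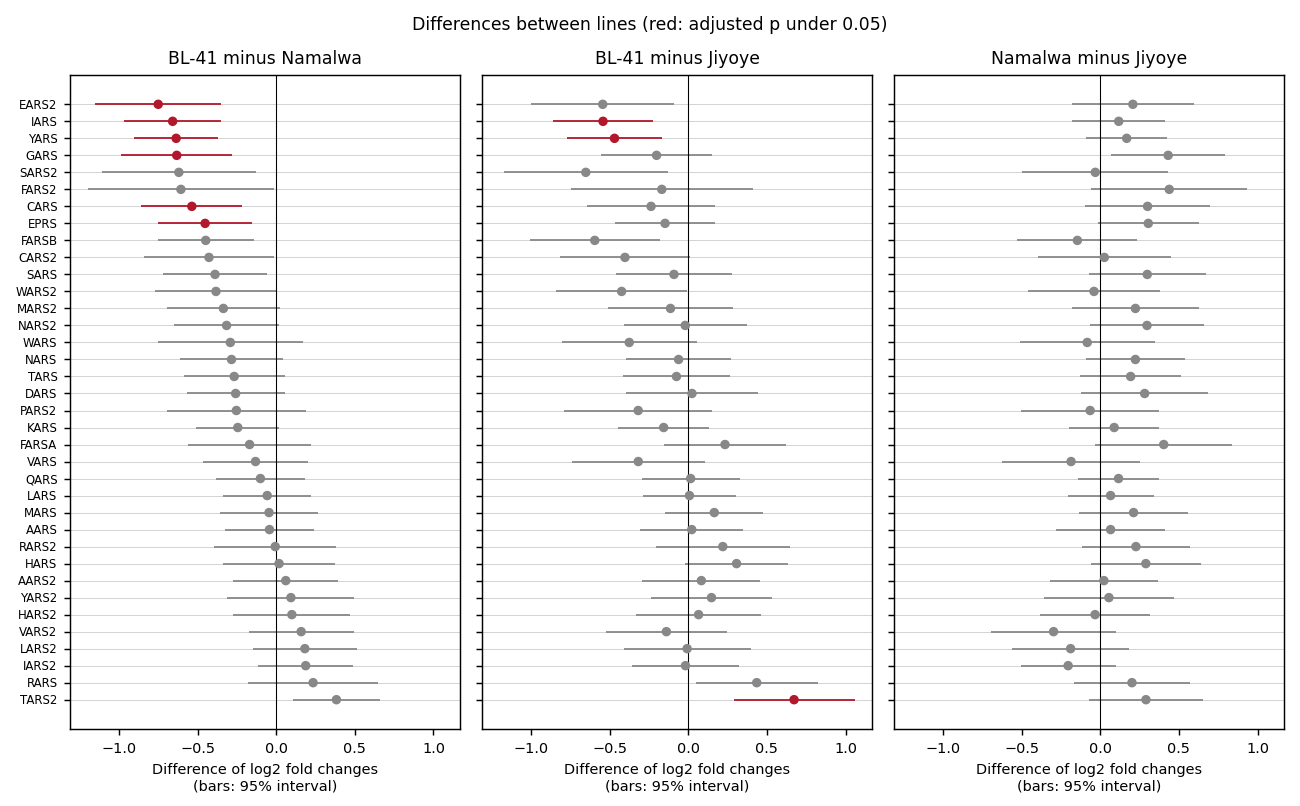
Difference of log2 fold changes between lines (x axis, bars are 95% intervals) for the 36 synthetases (rows), with the 3 pairs of lines side by side. Red marks an adjusted p under 0.05 by the z test, which 6 members reach for BL-41 minus Namalwa, 3 for BL-41 minus Jiyoye and none for Namalwa minus Jiyoye.

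A shared sign over the 3 lines was less frequent among synthetases than among genes at large, as a description. It was found for 14 of the 36 members (38.9%), 7 with all values above 0 and 7 with all below. Of the 8870 genes expressed in every line it was found for 5067 (57.1%). Such a sign takes no account of size or error.

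Genes that act with the synthetases were described from lists. Of 9 other charging genes 4 fell in BL-41, against 1 in Namalwa and 1 in Jiyoye, and none rose. More genes were called in BL-41 at large, as 20.7%, 5.76% and 12.8% of the expressed genes were called lower in the same order. MTFMT, which formylates the initiator methionyl-tRNA of mitochondria, fell in all 3 lines (-0.65, -0.49 and -0.66, adjusted p = 0.00285, 0.00828 and 0.00433, DESeq2 in the authors' deposited tables). QRSL1, a subunit of the enzyme that makes mitochondrial glutaminyl-tRNA, went from 1582 to 987 in BL-41 (-0.68, 4.18e-06, the authors' deposited table). DTD1, which removes D-amino acids from transfer RNA, and AARSD1, an alanyl editing protein, fell there as well (-0.61 and -0.39).

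Elongation factors act in the translation that follows charging, and only some of them deliver the charged transfer RNA to the ribosome. Of the 5 cytosolic ones EEF1A1 (0.30, adjusted p = 0.0401), EEF1B2 (0.45, 0.000421) and EEF1G (0.44, 0.000635) rose in BL-41 in the authors' deposited table, where the cytosolic synthetases that were called fell. The share of expressed genes called higher in BL-41 was 20.0%. None of the 5 was called in Namalwa or Jiyoye, nor had any an unadjusted p under 0.05 by DESeq2. Of the 4 mitochondrial ones none was called in any line, and 1, 3 and 1 had an unadjusted p under 0.05 by DESeq2 in BL-41, Namalwa and Jiyoye.

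Of 14 regulators of the integrated stress response, 6 fell and 1 rose in BL-41, none was called in Namalwa and 4 rose in Jiyoye. In Namalwa 1 was higher and 1 lower at an unadjusted p under 0.05 by DESeq2. Over expressed genes, the shares called lower and higher were 20.7% and 20.0% in BL-41, and 12.8% and 12.7% in Jiyoye. ATF4 messenger RNA was not called in any line (0.08, 0.17 and -0.17), and ATF4 is controlled mainly at translation, which these data do not measure. ATF5 (17971 to 9288), TRIB3 and CEBPG fell in BL-41 in the authors' deposited table (-0.95, -0.95 and -0.48, adjusted p from 1.07e-09 to 0.000747). EIF2AK2, a kinase activated by double-stranded RNA, was the regulator that rose there, from 204 to 363 (0.83, adjusted p = 4e-05, the authors' deposited table). The 4 that rose in Jiyoye were EIF2AK2, CEBPB, EIF2AK3 and EIF2AK1 (1.09, 0.70, 0.43 and 0.27), of which the kinases start the response by phosphorylating the initiation factor eIF2.

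Of 8 genes of amino acid synthesis, 5 fell and 1 rose in BL-41, 1 fell and 1 rose in Namalwa and 4 fell in Jiyoye. For this list and for the transporters below, the shares of expressed genes called lower were 20.7%, 5.76% and 12.8% in the same order. Called higher were 20.0% in BL-41 and 3.85% in Namalwa. ASNS is described with NARS above. SHMT2, which makes glycine from serine in mitochondria, went from 25811 to 15041 in BL-41 (-0.78, adjusted p = 4.58e-07, the authors' deposited table). PYCR1, an enzyme of proline synthesis, fell there by 0.66 on the log2 scale. ALDH18A1, which acts earlier in proline synthesis, was the gene that rose, in BL-41 (0.35, adjusted p = 0.0213) and in Namalwa (0.30, 0.0189), per the authors' deposited tables. PHGDH and PSAT1, enzymes of serine synthesis, fell in BL-41 (-0.46 and -0.56) and in Jiyoye (-0.64 and -0.75). Of 8 amino acid transporters 4 fell in BL-41, none was called in Namalwa, where none had an unadjusted p under 0.05 by DESeq2, and 1 fell in Jiyoye. That 1 was SLC7A5, a carrier of large neutral amino acids, at -0.52 (adjusted p = 0.049), and in BL-41 it was -1.07 (1.76e-09) in the authors' deposited tables.

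**Figure D5:**
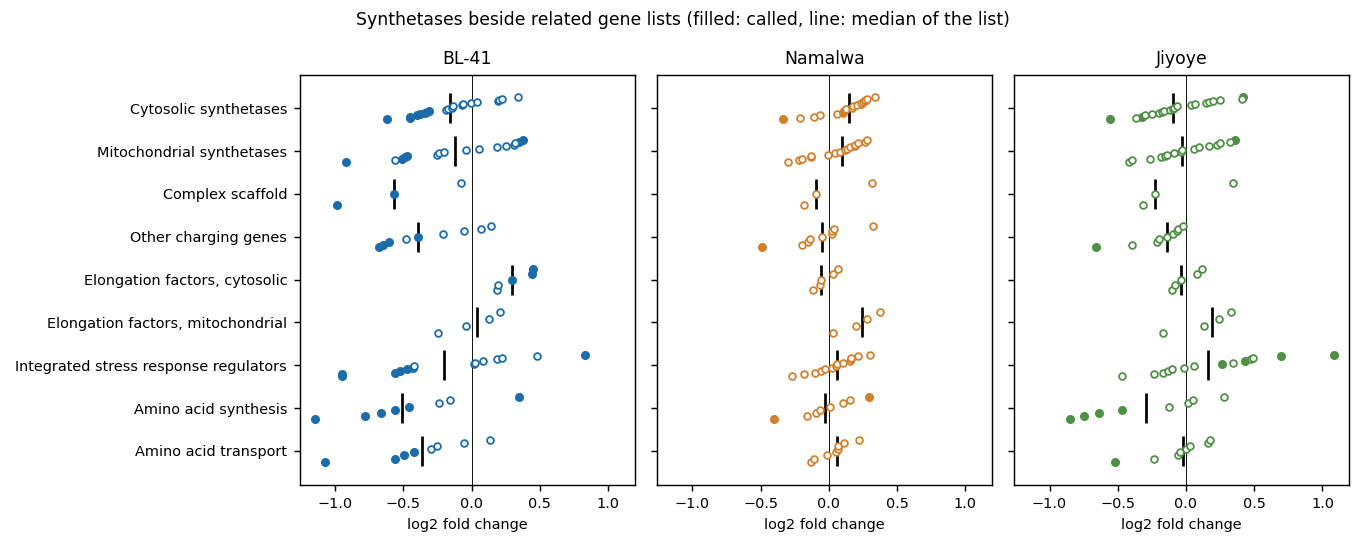
Log2 fold change (x axis) of the synthetases and of 7 related gene lists (rows) in 3 lines. Each point is 1 gene, filled where called at an adjusted p under 0.05, and the black line is the median of the list. In BL-41 the medians of the cytosolic synthetases (-0.16), amino acid synthesis (-0.51) and transport (-0.36) lie left of 0, and that of the cytosolic elongation factors (0.30) lies right of it.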

How the data were processed

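Messenger RNA of 18 libraries in 6 groups was compared within each of 3 lines. Reads were filtered with SOAPnuke and mapped with Bowtie2 to hg38, and RSEM and DESeq2 were used, per the series' design text and the submitters' processing notes, with no versions. The authors deposited 1 normalized signal value per arm, and their ratio equals the deposited log2 fold change (largest difference 1.4e-14). How the arm values were averaged is not given in the sources used here. DESeq2 gave the authors' deposited p-values, raw and adjusted. Gene length (another column of the deposited tables) was used for values per kb. It differs between lines by up to 4.31%, and depth per library is unknown.

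The SE was recovered by dividing the fold change by the normal deviate of its p, and its median over members was 0.124, 0.114 and 0.144 in BL-41, Namalwa and Jiyoye. Differences between lines were tested with a two-sided z test and Benjamini-Hochberg adjustment, and the code was tested on simulated data. Alternatives were filters at a mean of 10 or 100, 2 scalings, another SE and thresholds of 0.01 and 0.1. The count test planned for values per library could not be run on these tables. Members and lists were chosen with earlier results of these data known. Named in full are the 8 members per line with the smallest adjusted p among those called, those called alike in all 3 lines or oppositely, and those past a difference test. Pathway lists name up to 4 members per line by adjusted p. Overlapping genes came from GENCODE 44 and promoters from RefSeq (GRCh38.p14). Calculations used scipy 1.17.1, pandas 2.3.3, numpy 2.4.6 and matplotlib 3.10.9 under Python 3.11.15.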

Additional observations from a re-analysis of the deposited data

Results flagged for a closer look

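These synthetases are listed because their fold changes differ between lines by the z test with adjustment over all shared genes. BL-41 minus Namalwa gave -0.64 for YARS, -0.66 for IARS, -0.75 for EARS2, -0.63 for GARS, -0.54 for CARS and -0.45 for EPRS. BL-41 minus Jiyoye gave -0.54 for IARS, -0.47 for YARS and 0.67 for TARS2. IARS and YARS appear in both sets, which share the BL-41 libraries. The exons of YARS and EARS2 overlap a gene on the other strand, and the part of these overlaps was not tested. FOXO3 was lowered to different extents in the lines (log2 fold change -0.79 in BL-41, -1.09 in Namalwa, -0.30 in Jiyoye), and its part in these differences was not tested.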

How the results depend on the processing

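No paired analysis was possible because the deposited tables used here hold 1 value per arm and none per library, and leaving out each replicate and the edgeR test were not run for the same reason. Of the recomputed counts of calls 40 stayed within 1.5 times their value and 14 moved. At an adjusted p under 0.01 the calls were 2 mitochondrial in BL-41, 0 cytosolic in Namalwa (9 at an unadjusted p under 0.05 by DESeq2), and in Jiyoye 1 cytosolic and 0 mitochondrial (4 at an unadjusted p under 0.05). BL-41 had no cytosolic gene higher, but 1 with either filter on low values (AARS), 1 with the SE of genes of like mean value (RARS) and 2 at an adjusted p under 0.1 (both). At an adjusted p under 0.1 the calls were 4 cytosolic in Namalwa, and in Jiyoye 5 cytosolic and 2 mitochondrial. Adjusting over expressed genes alone (a mean of 100) gave 4 cytosolic calls in Namalwa and 2 mitochondrial calls in Jiyoye, as fewer genes were tested, and a mean of 10 also gave 2 in Jiyoye. With arms rescaled to equal sums there was 1 cytosolic call in Namalwa and 2 mitochondrial calls in Jiyoye, and WARS in BL-41, not called, changed sign from 0.043 to -0.011. With the SE of genes of like mean value Jiyoye had 5 cytosolic and 2 mitochondrial calls. For these scalings and SE the cause was not tested. The motif shares over expressed genes were 1.82% (TGATGNAA), 10.1% (CACGTG) and 2.65% (GTAAACA). Searching only the bases upstream of the start, chosen after seeing the data, left 4 of the 8 windows with the ATF core. NARS lower in BL-41 and Jiyoye was called under every alternative run. Depth per library is unknown, so it sets no limit that can be stated.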
